A study of Mus musculus with 8 samples.

Results

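The genes described here are 54 members of the TGF-beta and BMP signalling pathways, taken from a list of symbols and matched to mouse Ensembl identifiers among the 53465 genes of the table. They fall into 8 roles, namely 12 ligands, 11 receptors, 6 receptor-regulated or common Smads, 2 inhibitory Smads, 4 Id genes, 10 secreted antagonists or modulators, 4 latent binding proteins and 5 membrane or intracellular inhibitors. Poly(A) RNA of heart ventricles from mouse embryos at E15.5 was sequenced in 2 genotypes with 4 libraries each, and 1 ventricle was used per replicate. The genotype called *Nrg1GOF* here carries a *Nrg1* (neuregulin-1) transgene at Rosa26 and a cardiac Cre driver, written Nkx2.5-Cre in the series title and Nkx5.5-Cre in the sample labels, and the other is wild type (WT). Nkx2.5-Cre acts in cells of the cardiac *Nkx2.5* lineage, so the transgene is not limited to a single layer of the ventricular wall, and the labels do not say whether WT embryos carried the Cre. Library totals ran from 8038641 counts in *Nrg1GOF* library 4 to 26786039 counts in WT library 1. Of the 54 members, 53 passed the filter on low counts. The exception was the BMP antagonist *Grem1*, with 0 to 3 counts per library.

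TGF-beta, activin and BMP ligands are secreted dimers that bring type I and type II receptor kinases together at the cell surface. The receptors phosphorylate Smad proteins, with Smad2 and Smad3 on the TGF-beta and activin branch and Smad1, Smad5 and Smad9 on the BMP branch, and these enter the nucleus with Smad4. Id genes and the inhibitory Smads are well known transcriptional targets of the BMP branch, and *Smad7* also of TGF-beta. In the embryonic heart, BMP10 is known for its part in growth of the trabecular myocardium, and TGF-beta ligands for their parts in cushion mesenchyme, epicardium-derived cells and matrix.

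*Nrg1* was examined as a check of the genotypes. It was at 4.17, 4.42, 3.07 and 4.47 in WT libraries 1 to 4 and at 60.7, 59.7, 63.7 and 63.1 in *Nrg1GOF* libraries 1 to 4, in counts-per-million (CPM) on library totals scaled by TMM, and its log2 fold change was 3.94 (SE 0.10, edgeR quasi-likelihood adjusted p = 8.26e-08) with all *Nrg1GOF* libraries above all WT libraries. Within WT, libraries 1 and 2 resembled each other (Pearson r of log2 CPM over tested genes, a description, 0.989), as did libraries 3 and 4 (0.991), while the other WT pairings stood at 0.980, and the labels name no batch for this split. Among the members the split went mostly one way. In 35 of the 53 members (66.0%) WT libraries 1 and 2 both lay above WT libraries 3 and 4, against 30.6% of all 15580 tested genes, and 3 members showed the opposite order (5.66% against 31.0%). Results are therefore also given against each WT pair for part of the members. Nothing in the labels says that libraries of a group came from separate litters, so p-values measure the spread between these samples. Because whole ventricles were sequenced, more cells of a type and more RNA per cell cannot be told apart for any gene below.

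With all libraries taken singly, most members of the pathway differed between the genotypes, and nearly all of those were higher in *Nrg1GOF*. With an adjusted p under 0.05, 33 of the 53 tested members were called (62.3%), against 28.7% of all tested genes. Of these, 29 were higher (54.7% of members, against 15.9% of all tested genes) and 4 were lower (7.55% against 12.8%). In the same 33 members the libraries of the genotypes did not overlap, which held for 30.7% of all tested genes. An absolute log2 fold change of at least 1 was reached by 10 called members (18.9% against 4.65%), 8 higher and 2 lower. Which higher members reached 1 depended on the WT pair. Against WT libraries 1 and 2 alone *Smad6* (0.98), *Id3* (0.95), *Ltbp2* (0.94) and *Id4* (0.70) were under 1. Against WT libraries 3 and 4 alone *Bmp4*, *Bmp6*, *Ltbp1* and *Smad9* were above it (1.04 to 1.26). The median log2 fold change of the 53 members was 0.42, and that of all tested genes was -0.012. With the libraries of each WT pair summed, 26 members were called, 25 higher and 1 lower, beside 2464 of all tested genes. These shares describe the list and were not tested as a set. By role, the calls took in 10 of 12 ligands, 5 of 11 receptors, 1 of 6 receptor-regulated or common Smads, both inhibitory Smads, all 4 Id genes, 4 of 9 secreted antagonists or modulators, all 4 latent binding proteins and 3 of 5 membrane or intracellular inhibitors. The roles were not tested against each other.

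**Figure D1:**
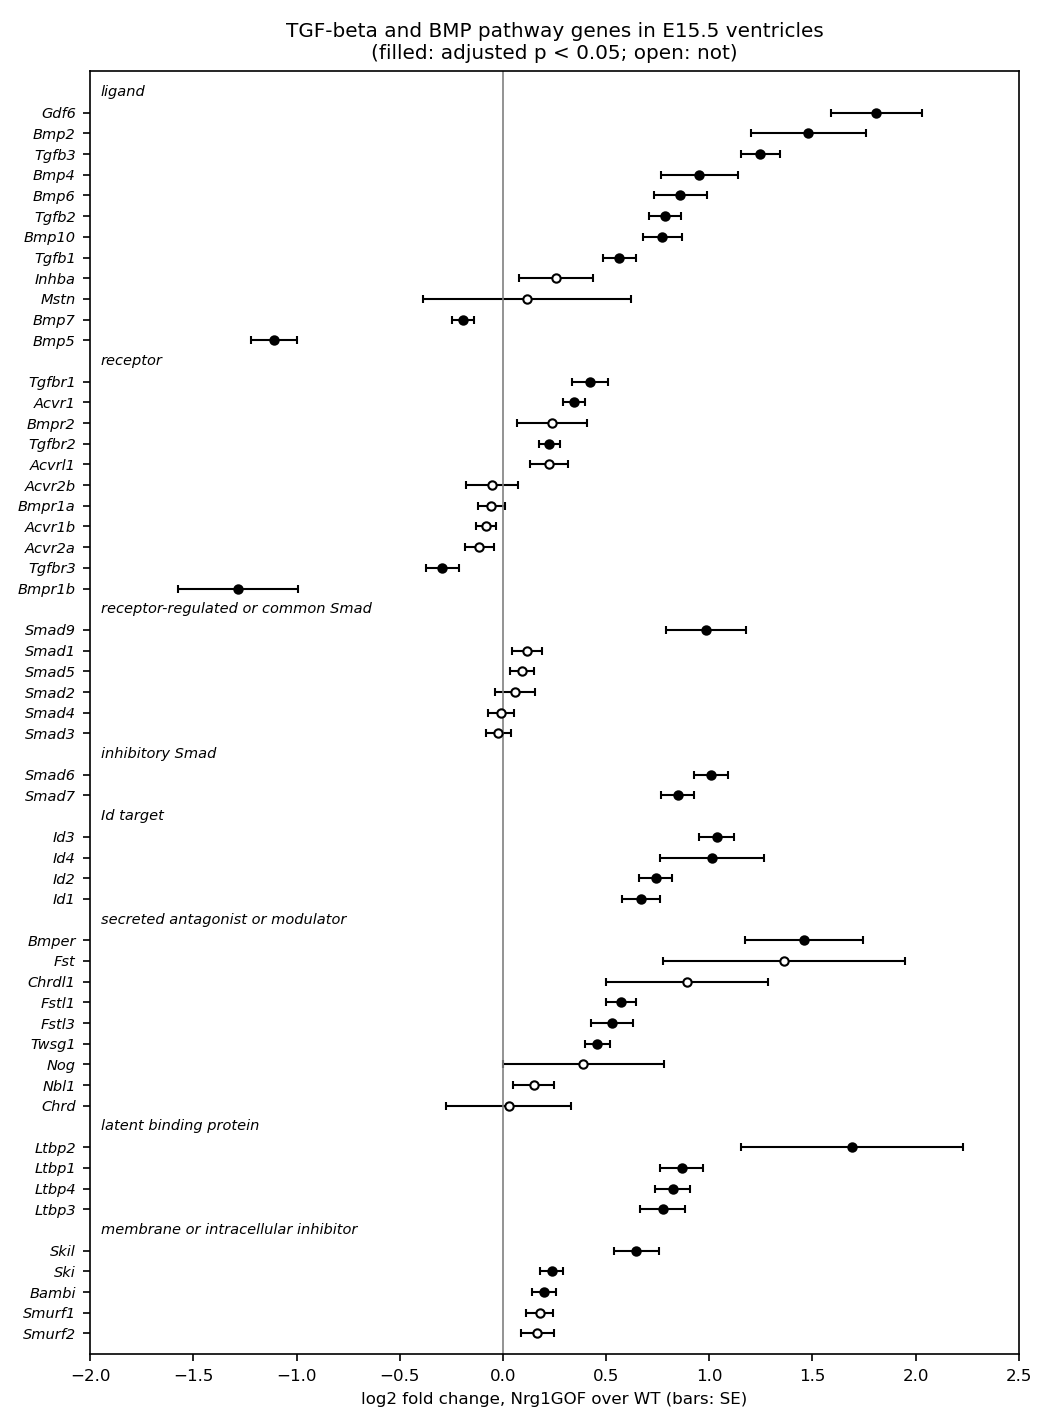
Log2 fold change (x axis, *Nrg1GOF* over WT, bars are SE) of the 53 tested members, grouped by role, with filled points for adjusted p under 0.05. All inhibitory Smads, Id genes and latent binding proteins and 10 of 12 ligands lie to the right of 0, and receptors lie on either side, from -1.28 (*Bmpr1b*) to 0.42 (*Tgfbr1*).

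The 3 TGF-beta ligands were all higher in *Nrg1GOF*, *Tgfb3* by the most. *Tgfb3* (GRCm38 chromosome 12, 86056745 to 86079041) was at 23.1, 21.98, 17.5 and 17.6 CPM in WT libraries 1 to 4 and at 47.4, 46.7, 49.4 and 46.8 CPM in *Nrg1GOF* libraries 1 to 4. Its 4 *Nrg1GOF* values were nearly equal and each was above every WT value, a log2 fold change of 1.25 (adjusted p = 2.96e-05, SE 0.10). *Tgfb2* (GRCm38 chromosome 1, 186622792 to 186705989), the TGF-beta ligand best known in the heart for cushion and outflow tract development, measured 67.8, 72.6, 57.95 and 59.8 in WT and 117, 113, 109 and 105 CPM in *Nrg1GOF*. The log2 fold change was 0.78 (adjusted p = 0.000105, SE 0.078). *Tgfb1* (GRCm38 chromosome 7, 25687002 to 25705077), broadly made by endothelial and blood-derived cells, had 27.7, 28.5, 31.6 and 33.6 in WT and 40.7, 45.2, 44.9 and 49.6 CPM in *Nrg1GOF*, a log2 fold change of 0.56 (adjusted p = 0.000787, SE 0.081). It was lower in WT libraries 1 and 2 than in 3 and 4, the reverse of *Tgfb2* and *Tgfb3*. Per kilobase of exon, *Tgfb2* was the highest of the 3 in both genotypes, at 11.1 ± 1.18 CPM per kb in WT and 19.2 ± 0.918 in *Nrg1GOF* (SD, n = 4). *Tgfb1* and *Tgfb3* did not differ beyond their spread in WT (6.02 ± 0.549 and 5.93 ± 0.866), and in *Nrg1GOF* *Tgfb3* was higher (14.1 ± 0.372 against 8.94 ± 0.727). This order of *Tgfb1* and *Tgfb3* depended on the length used. With the longest transcript in place of all exons *Tgfb1* was above *Tgfb3* in WT (11.8 against 5.93) and in *Nrg1GOF* (17.5 against 14.1).

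Among BMP ligands, 5 were higher and 2 were lower in *Nrg1GOF*, counting the related *Gdf6* among the former. *Bmp10* (GRCm38 chromosome 6, 87428994 to 87437677), the trabecular and atrial BMP, was at 115, 118, 151 and 129 in WT and 237, 218, 195 and 226 CPM in *Nrg1GOF*. All *Nrg1GOF* libraries were above all WT libraries, with a log2 fold change of 0.77 (adjusted p = 0.000299, SE 0.094). Atrial markers moved with it. The summed level of 6 atrial genes was 1001 to 1120 CPM in WT and 1601 to 1774 CPM in *Nrg1GOF*, with 3 of the 6 called, all higher, and its part in the *Bmp10* value was not tested. *Bmp2* (GRCm38 chromosome 2, 133552159 to 133562885), an inducer of cushion and atrioventricular canal fate, had 10.5, 8.95, 3.96 and 7.09 in WT and 20.96, 22.4, 26.7 and 13.6 CPM in *Nrg1GOF*. Its log2 fold change was 1.48 (adjusted p = 0.00338, SE 0.28), and it spread widely within each genotype, with WT library 3 lowest and *Nrg1GOF* library 3 highest. *Bmp4*, which takes part in outflow tract development, showed 8.03, 7.75, 5.22 and 5.57 in WT and 10.4, 13.8, 15.99 and 10.8 CPM in *Nrg1GOF*. Its groups were separate but close, from 8.03 to 10.4 CPM at the nearest, for a log2 fold change of 0.95 (adjusted p = 0.00438, SE 0.19). *Bmp6* (GRCm38 chromosome 13, 38345107 to 38500302), made by endothelial cells among others, was measured at 19.6, 19.9, 15.7 and 13.4 in WT and 27.3, 33.8, 32.5 and 30.8 CPM in *Nrg1GOF*, a log2 fold change of 0.86 (adjusted p = 0.000958, SE 0.13). *Gdf6*, a BMP-like ligand known from joint development, was found at a low level. It went from 2.03, 2.24, 1.74 and 1.23 in WT to 7.58, 6.71, 6.20 and 4.50 CPM in *Nrg1GOF*, a log2 fold change of 1.81 (adjusted p = 0.000319, SE 0.22).

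*Bmp5* and *Bmp7*, close relatives of *Bmp6*, went the other way. *Bmp5* (GRCm38 chromosome 9, 75775364 to 75900310) had 17.7, 18.2, 16.01 and 15.7 in WT and 7.67, 7.43, 9.19 and 6.63 CPM in *Nrg1GOF*, every *Nrg1GOF* library well below every WT library. Its log2 fold change was -1.11 (adjusted p = 0.000107, SE 0.11). An antisense gene, *Gm26903*, covers 46.7% of the annotated exon length of *Bmp5*. Because the strand mode of the quantification was not given in the sources used here, reads of the 2 genes on these shared bases cannot be told apart. *Gm26903* itself, with 1878 of its 4583 exon bases shared, was assigned 0 to 3 counts per library. *Bmp7* (GRCm38 chromosome 2, 172868012 to 172940321) changed little, from 153 ± 3.85 in WT to 134 ± 6.55 CPM in *Nrg1GOF* (means ± SD, n = 4), a log2 fold change of -0.19 (adjusted p = 0.0197, SE 0.052). That call was lost without WT library 4 (adjusted p = 0.0573) as well as with only WT libraries 1 and 2 (adjusted p = 0.113). Per kilobase of exon *Bmp7* was the highest ligand in WT (38.01 ± 0.958 CPM per kb), followed by *Bmp10* (28.5 ± 3.59). In *Nrg1GOF* the order was the reverse, with *Bmp10* at 48.8 ± 3.93 and *Bmp7* at 33.3 ± 1.63 CPM per kb (SD, n = 4).

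The activin subunit gene *Inhba* and the muscle growth inhibitor *Mstn* were not called. *Inhba* ranged from 16.4 to 28.9 CPM in WT and from 23.2 to 31.7 CPM in *Nrg1GOF* (log2 fold change 0.26, adjusted p = 0.321, SE 0.18). Against WT libraries 3 and 4 alone the value was 0.62 (adjusted p = 0.00966) while WT libraries 1 and 2 alone gave -0.034, so the sign and the call depended on the WT pair. *Mstn* was at 0.41 to 1.61 CPM in WT and 0.25 to 1.33 CPM in *Nrg1GOF* (log2 fold change 0.12, SE 0.51, adjusted p = 0.896).

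**Figure D2:**
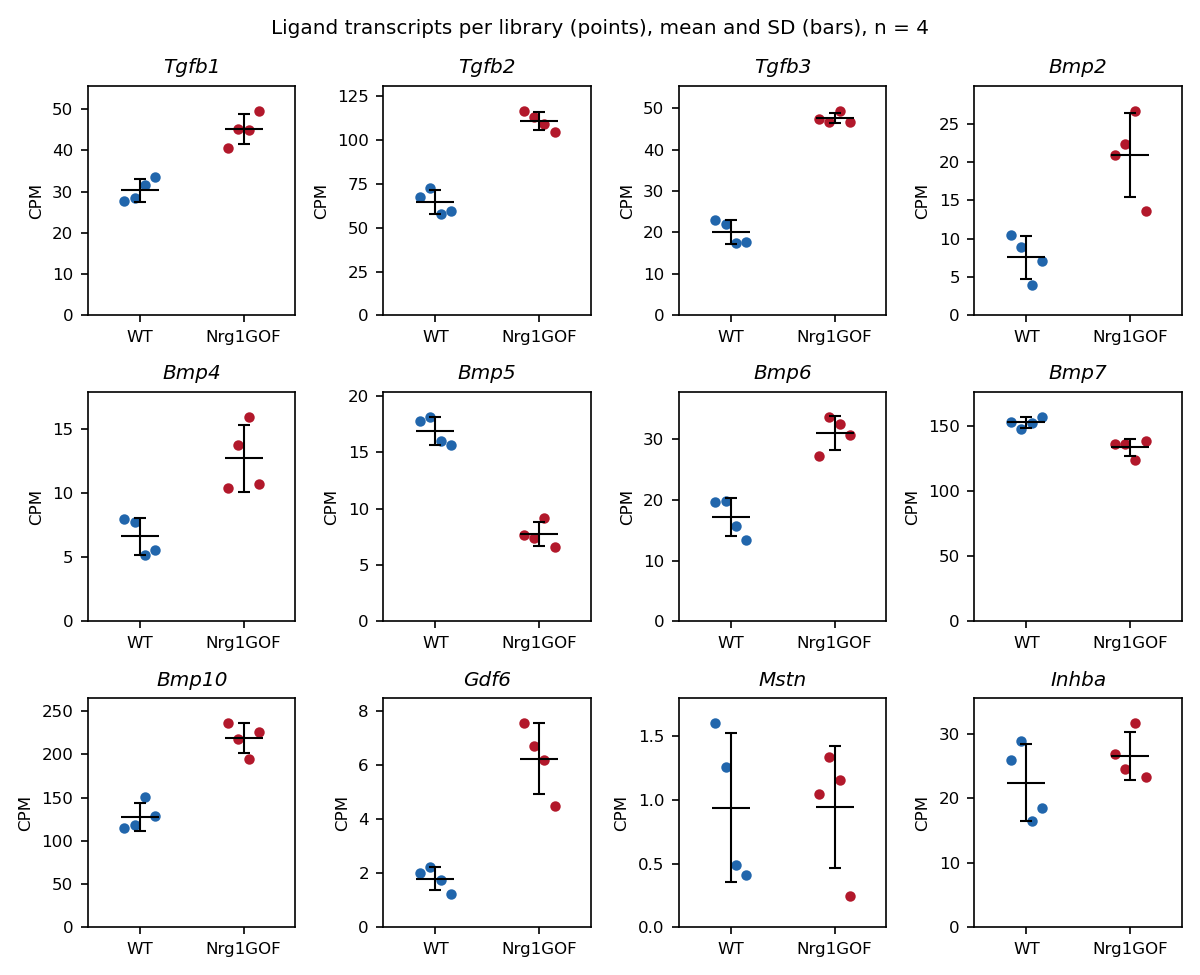
CPM (y axis, from 0) of the 12 ligands in each WT and *Nrg1GOF* library (points), with mean and SD (bars). The genotypes do not overlap in 10 of the 12, of which *Bmp5* and *Bmp7* are lower in *Nrg1GOF*, and *Inhba* and *Mstn* overlap.

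All 4 latent TGF-beta binding proteins, which tether TGF-beta or elastic fibre components in the matrix, were higher in *Nrg1GOF*. *Ltbp4* (GRCm38 chromosome 7, 27305136 to 27337692) was the most abundant per length, at 32.1 ± 3.13 CPM per kb in WT. Its levels were 219, 229, 185 and 198 in WT and 329.7, 379, 405 and 355 CPM in *Nrg1GOF*, a log2 fold change of 0.82 (adjusted p = 0.00013, SE 0.085). *Ltbp1* (GRCm38 chromosome 17, 75005568 to 75392512), the binding protein first found with latent TGF-beta, was nearly constant across *Nrg1GOF*, with 189, 182, 182 and 179 CPM, and split by pair in WT, with 113, 117, 87.5 and 84.4 CPM. Its log2 fold change was 0.87 (adjusted p = 0.0003, SE 0.10). *Ltbp3* showed 90.5, 85.5, 73.4 and 72.98 in WT and 120.3, 137, 165 and 129 CPM in *Nrg1GOF*, highest in library 3, for a log2 fold change of 0.77 (adjusted p = 0.00067, SE 0.11). *Ltbp2*, which does not bind latent TGF-beta and belongs to elastic fibres and microfibrils, was the member that varied most within WT. It was at 10.8, 9.27, 1.13 and 2.75 in WT and 18.4, 17.95, 26.2 and 13.5 CPM in *Nrg1GOF*. Its log2 fold change was 1.69 (adjusted p = 0.04, SE 0.54), 0.94 against WT libraries 1 and 2 alone and 3.32 against WT libraries 3 and 4 alone. The *Ltbp2* call was lost without any 1 of the *Nrg1GOF* libraries (adjusted p from 0.0527 to 0.0972), without WT library 4 (adjusted p = 0.0939) and with DESeq2 (adjusted p = 0.0545), although its direction held in each. The summed fibroblast and valve mesenchyme markers were also higher in WT libraries 1 and 2 than in 3 and 4, at 3266 to 4438 CPM in WT and 5875 to 7710 CPM in *Nrg1GOF*, and their part in these results was not tested.

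Of the 11 receptors, 3 were higher, 2 were lower and 6 were not called, with a median log2 fold change of -0.054. The type I and type II receptors for TGF-beta itself were both among the higher, *Tgfbr1* by 0.42 (adjusted p = 0.00515, SE 0.086), from 86.1 ± 7.26 to 115 ± 12.2 CPM, and *Tgfbr2* by 0.22 (adjusted p = 0.00787, SE 0.05), from 86.7 ± 2.41 to 101 ± 4.20 CPM (means ± SD, n = 4). The *Tgfbr2* call was lost with only WT libraries 1 and 2 (adjusted p = 0.0615). *Acvr1*, a type I receptor for BMPs, rose by 0.34 on the log2 scale (adjusted p = 0.00125, SE 0.054), from 45.5 ± 2.59 to 57.8 ± 1.38 CPM. *Tgfbr3* (betaglycan), a co-receptor that presents TGF-beta2 and binds inhibin, fell by 0.29 on the log2 scale (adjusted p = 0.019, SE 0.078), from 73.7 ± 1.78 to 60.3 ± 7.003 CPM. It lost its call without *Nrg1GOF* library 2 (adjusted p = 0.0653) and when either WT pair was used alone. *Bmpr1b*, a BMP type I receptor best known in cartilage, was scarce, with 1.80, 1.80, 1.37 and 1.60 in WT and 0.726, 0.667, 0.855 and 0.250 CPM in *Nrg1GOF*. Its *Nrg1GOF* libraries held 2 to 20 counts each, fewer than the 33 to 47 of WT, for a log2 fold change of -1.28 (adjusted p = 0.00854, SE 0.29). The *Bmpr1b* call was lost with only WT libraries 3 and 4 (adjusted p = 0.0563).

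The main BMP type I receptor of the heart, *Bmpr1a*, was the most abundant receptor per length in both genotypes and was at 199 ± 9.96 in WT and 191 ± 13.5 CPM in *Nrg1GOF* (means ± SD, n = 4), with a log2 fold change of -0.056 (adjusted p = 0.566, SE 0.064). The activin receptors *Acvr1b*, *Acvr2a* and *Acvr2b* had log2 fold changes of -0.083 (SE 0.049), -0.11 (SE 0.072) and -0.054 (SE 0.13), none of them called. *Acvrl1*, the endothelial type I receptor for BMP10 and its relative BMP9, was at 22.3 ± 1.46 in WT and 25.9 ± 3.19 CPM in *Nrg1GOF* (means ± SD, n = 4; adjusted p = 0.102). Without *Nrg1GOF* library 4 it was called, at a log2 fold change of 0.30 (adjusted p = 0.0251). *Bmpr2*, the type II receptor of BMPs, spread from 141 to 231 CPM in WT and from 191 to 257 CPM in *Nrg1GOF*, and its log2 fold change of 0.24 (adjusted p = 0.339, SE 0.17) became -0.048 with only WT libraries 1 and 2 and 0.60 with only WT libraries 3 and 4 (adjusted p = 0.00683).

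The transducing Smads other than *Smad9* stayed within -0.022 (*Smad3*) and 0.12 (*Smad1*) on the log2 scale, with SE from 0.058 (*Smad5*) to 0.10 (*Smad2*), and none of those 5 was called. *Smad2* ranged from 44.3 to 58.8 CPM in WT and from 50.3 to 58.9 CPM in *Nrg1GOF*. Its log2 fold change was -0.10 with only WT libraries 1 and 2 and 0.24 with only WT libraries 3 and 4, called with neither. *Smad1*, *Smad5*, *Smad3* and *Smad4* were at 27.03 ± 1.02, 114 ± 3.90, 64.8 ± 4.23 and 88.8 ± 5.03 CPM in WT, and at 29.3 ± 2.51, 122 ± 7.87, 63.7 ± 2.48 and 88.2 ± 5.22 CPM in *Nrg1GOF*, in that order (means ± SD, n = 4). *Smad9* (GRCm38 chromosome 3, 54755582 to 54801257), the third BMP-branch Smad and the least abundant Smad per length, was higher. It had 5.27, 6.11, 4.41 and 6.31 in WT and 9.76, 10.5, 14.9 and 8.001 CPM in *Nrg1GOF*, a log2 fold change of 0.98 (adjusted p = 0.0043, SE 0.19), with *Nrg1GOF* library 3 the highest.

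Both inhibitory Smads were higher by close to 1 on the log2 scale. *Smad6* (GRCm38 chromosome 9, 63953076 to 64022059), which restrains the BMP branch, was at 38.1, 35.6, 33.1 and 38.3 in WT and 62.7, 78.2, 75.5 and 76.1 CPM in *Nrg1GOF*. The groups did not overlap, and the log2 fold change was 1.01 (adjusted p = 3.80e-05, SE 0.081). *Smad7*, an inhibitor of both branches, was almost constant in WT, at 26.8, 26.3, 25.8 and 25.2 CPM, and stood at 42.8, 46.6, 54.4 and 42.6 CPM in *Nrg1GOF*. Its log2 fold change was 0.85 (adjusted p = 8.66e-05, SE 0.081). For both genes the value hardly moved with the WT pair used, from 0.98 to 1.04 for *Smad6* and from 0.82 to 0.88 for *Smad7*.

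All 4 Id genes, whose products block basic helix-loop-helix transcription factors, rose in *Nrg1GOF*. *Id3* (GRCm38 chromosome 4, 136143497 to 136145755) went from 43.5, 45.6, 37.4 and 41.8 in WT to 75.3, 95.96, 87.8 and 86.01 CPM in *Nrg1GOF*, a log2 fold change of 1.04 (adjusted p = 4.17e-05, SE 0.085). *Id2* (GRCm38 chromosome 12, 25093799 to 25097140), which is also known in the conduction system, measured 45.7, 51.6, 40.2 and 45.4 in WT and 74.6, 80.8, 79.97 and 69.1 CPM in *Nrg1GOF*. The log2 fold change of *Id2* was 0.74 (adjusted p = 0.000171, SE 0.081). *Id1* (GRCm38 chromosome 2, 152736251 to 152737410), the classic readout of BMP signalling, had 24.6, 20.9, 22.3 and 23.6 in WT and 30.9, 35.7, 38.96 and 40.9 CPM in *Nrg1GOF*, for a log2 fold change of 0.67 (adjusted p = 0.000633, SE 0.093). Its lowest *Nrg1GOF* library was above its highest WT library, and its value was 0.67 against either WT pair. *Id4* (GRCm38 chromosome 13, 48261228 to 48266026) was scarcer and more variable, with 5.73, 5.78, 2.35 and 4.75 in WT and 8.58, 9.43, 11.1 and 8.13 CPM in *Nrg1GOF*. The log2 fold change was 1.01 (adjusted p = 0.0134, SE 0.25), 0.70 against WT libraries 1 and 2 alone and 1.41 against WT libraries 3 and 4 alone. *Id4* was lowest in WT library 3. Per kilobase of exon, *Id3*, *Id1* and *Id2* lay at 23.5 ± 1.93, 19.7 ± 1.40 and 18.8 ± 1.90 CPM per kb in WT, and *Id4* at 1.21 ± 0.418 (SD, n = 4).

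**Figure D3:**
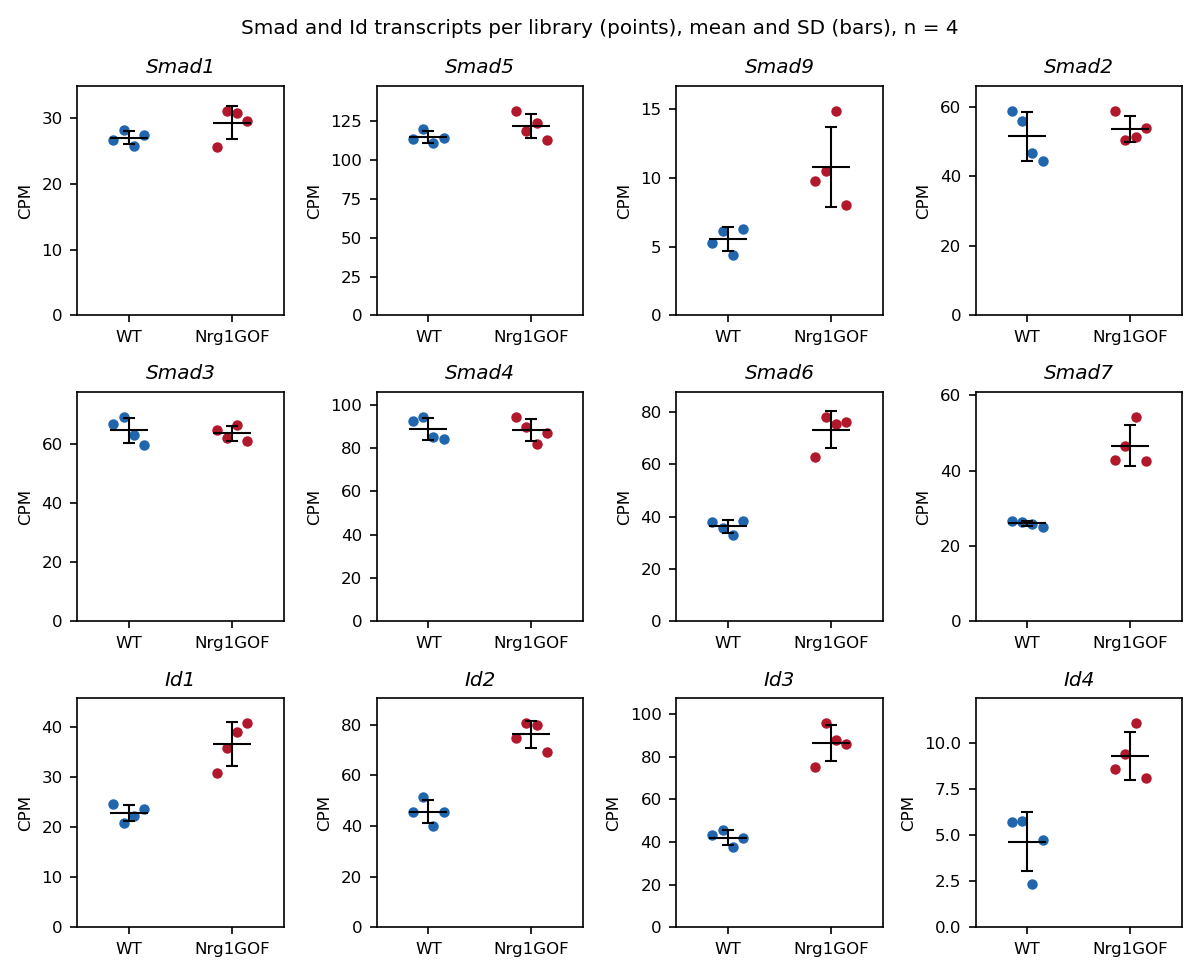
CPM (y axis, from 0) of 8 Smads and 4 Id genes in each WT and *Nrg1GOF* library (points), with mean and SD (bars). *Smad9*, *Smad6*, *Smad7* and all 4 Id genes are higher in *Nrg1GOF* without overlap, whereas *Smad1*, *Smad5*, *Smad2*, *Smad3* and *Smad4* overlap.

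Promoter sequence is shown for 4 members that were higher, 2 ligands, 1 inhibitory Smad and 1 Id gene, to let the reader compare what lies before their starts. Each window is the 250 bases before the RefSeq start on GRCm38.p6, 5′ to 3′ on the gene's own strand, without annotated exon bases of the gene. Capitals mark GGCGCC, a GC-rich sequence bound by BMP-branch Smads, and CAGAC on either strand (GTCTG on the other), the core of the box bound by Smad3 and Smad4. The windows are chr1:186705990-186706239 (minus strand) for *Tgfb2*, chr6:87428744-87428993 (plus strand) for *Bmp10*, chr9:64022060-64022309 (minus strand) for *Smad6* and chr13:48260866-48261115 (plus strand) for *Id4*.
Tgfb2: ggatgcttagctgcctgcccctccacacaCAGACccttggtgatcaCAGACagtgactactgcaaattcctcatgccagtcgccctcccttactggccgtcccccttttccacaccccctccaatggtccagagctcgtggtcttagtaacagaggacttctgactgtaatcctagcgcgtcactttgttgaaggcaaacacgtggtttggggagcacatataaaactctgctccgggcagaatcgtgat
Bmp10: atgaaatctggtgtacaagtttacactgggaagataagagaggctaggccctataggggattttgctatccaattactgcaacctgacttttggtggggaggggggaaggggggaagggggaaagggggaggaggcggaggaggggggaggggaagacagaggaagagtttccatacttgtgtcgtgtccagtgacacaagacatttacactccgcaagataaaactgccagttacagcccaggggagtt
Smad6: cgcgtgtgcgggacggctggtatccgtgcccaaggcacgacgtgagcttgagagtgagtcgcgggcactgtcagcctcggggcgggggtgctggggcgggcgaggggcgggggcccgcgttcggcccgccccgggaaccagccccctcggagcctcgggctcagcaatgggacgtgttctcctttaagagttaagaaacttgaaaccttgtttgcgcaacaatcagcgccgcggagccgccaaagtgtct
Id4: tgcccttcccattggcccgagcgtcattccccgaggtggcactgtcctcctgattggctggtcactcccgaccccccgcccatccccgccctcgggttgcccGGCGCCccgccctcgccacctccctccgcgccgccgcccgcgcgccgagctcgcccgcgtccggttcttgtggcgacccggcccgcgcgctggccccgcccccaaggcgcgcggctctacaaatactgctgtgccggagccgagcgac
The *Tgfb2* window held CAGAC at 2 places and the *Id4* window held GGCGCC at 1, while the *Bmp10* and *Smad6* windows held neither. Base composition differed, with 75.6% G or C for *Id4*, 66.8% for *Smad6*, 53.6% for *Tgfb2* and 52% for *Bmp10*. A RefSeq promoter was found for 39 of the 54 members. GGCGCC was in 13 of these (33.3%) and in 10.8% of 27025 genes with a promoter, and CAGAC was in 19 (48.7%) and in 45.8%. GGCGCC holds only G and C, and the base composition of member promoters and of all promoters was not compared. Called members held GGCGCC in 6 of 24 and the remaining members in 7 of 15. These are matches of letters, and no binding was measured.

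Of the 9 secreted antagonists and modulators tested, 4 were called, all of them higher. *Fstl1* (GRCm38 chromosome 16, 37776873 to 37836514), a follistatin-like glycoprotein made by mesenchymal and epicardial cells, was the most abundant member per length by far, at 162 ± 13.4 CPM per kb in WT and 241 ± 14.1 in *Nrg1GOF* (SD, n = 4). Its levels were 856, 850.4, 736 and 742 in WT and 1259, 1226, 1125 and 1124 CPM in *Nrg1GOF*, a log2 fold change of 0.57 (adjusted p = 0.000373, SE 0.072). *Bmper* (GRCm38 chromosome 9, 23223076 to 23485200), a secreted BMP-binding protein of endothelial biology, had 7.53, 7.36, 3.60 and 5.45 in WT and 16.1, 16.5, 22.9 and 9.001 CPM in *Nrg1GOF*. The nearest libraries of the groups were at 7.53 and 9.00 CPM, for a log2 fold change of 1.46 (adjusted p = 0.00425, SE 0.29). *Fstl3*, which traps activin and myostatin, was at 15.4, 17.7, 14.1 and 17.6 in WT and 22.5, 26.8, 21.3 and 22.9 CPM in *Nrg1GOF*, a log2 fold change of 0.53 (adjusted p = 0.00388, SE 0.10). *Prss57* covers 47.3% of its exon length on the opposite strand and was assigned 0 to 7 counts per library. *Twsg1*, a partner of chordin, went from 160.5 ± 10.04 to 220.1 ± 10.2 CPM (means ± SD, n = 4), a log2 fold change of 0.46 (adjusted p = 0.000501, SE 0.06).

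The classic secreted antagonists were at low levels in both genotypes. *Nog* (noggin) reached 1.00 CPM at most, *Chrd* (chordin) 2.10 CPM, *Fst* (follistatin) 1.92 CPM and *Chrdl1* 5.05 CPM, and *Grem1* had at most 3 counts in a library. None of these was called, with log2 fold changes of 0.39 (SE 0.39), 0.029 (SE 0.30), 1.36 (SE 0.58) and 0.89 (SE 0.39) for *Nog*, *Chrd*, *Fst* and *Chrdl1*. *Chrdl1* was called after all libraries were thinned to the smallest total, at 1.09 (adjusted p = 0.0372), and with only WT libraries 3 and 4 (adjusted p = 0.0376). Without *Nrg1GOF* library 3, its highest, the log2 fold change of *Chrdl1* was 0.47 (adjusted p = 0.357), and with only WT libraries 1 and 2 it was 0.47 (adjusted p = 0.484). *Nbl1*, of the DAN family of antagonists, was at 10.1 ± 0.955 and 11.2 ± 0.737 CPM in WT and *Nrg1GOF* (means ± SD, n = 4) and was not called (log2 fold change 0.15, SE 0.10, adjusted p = 0.299).

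Of the inhibitors at the membrane and inside the cell, *Skil* (SnoN), a Smad corepressor and itself a TGF-beta target, changed most. It was at 49.6, 50.7, 37.04 and 40.03 in WT and 75.1, 70.7, 70.5 and 60.3 CPM in *Nrg1GOF*, a log2 fold change of 0.65 (adjusted p = 0.00186, SE 0.11). The related corepressor *Ski* was called with a small difference, 0.24 (adjusted p = 0.0106, SE 0.056), from 168 ± 5.31 to 198 ± 11.2 CPM, and so was the decoy receptor *Bambi*, 0.20 (adjusted p = 0.0264, SE 0.057), from 48.6 ± 2.46 to 55.7 ± 2.55 CPM (means ± SD, n = 4). *Ski* lost its call with only WT libraries 1 and 2 (adjusted p = 0.0896), and so did *Bambi* (adjusted p = 0.182). *Bambi* also lost it without *Nrg1GOF* library 2, WT library 3 or WT library 4 (adjusted p = 0.0846, 0.0814 and 0.0622). The ubiquitin ligases *Smurf1* and *Smurf2* were at 0.18 (adjusted p = 0.0704, SE 0.066) and 0.17 (adjusted p = 0.153, SE 0.08) and were not called. *Smurf1* was called without *Nrg1GOF* library 3, at 0.22 (adjusted p = 0.03), and under scaling by library total, and *Smurf2* against WT libraries 3 and 4 alone, at 0.31 (adjusted p = 0.0108).

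The comparisons were repeated with each WT pair, which leaves 2 WT libraries in place of 4. Over the 29 higher members, the median log2 fold change was 0.78 against all WT libraries, 0.67 against WT libraries 1 and 2 alone and 0.92 against WT libraries 3 and 4 alone, with 26 of the 29 called against the first pair and 29 against the second. Of the 4 lower members, *Bmp5* was called against each pair, *Bmpr1b* against the first alone, *Bmp7* against the second alone and *Tgfbr3* against neither. The log2 fold changes of those that lost a call stayed close to the values with all WT libraries, at -0.17 for *Bmp7* and -1.13 for *Bmpr1b* with the pair that lost it, and at -0.32 and -0.27 for *Tgfbr3*. *Inhba*, *Bmpr2*, *Chrdl1* and *Smurf2* were called only against WT libraries 3 and 4, among the comparisons with all WT libraries and with each pair. Of the 29 higher members, 21 had WT libraries 1 and 2 both above WT libraries 3 and 4. *Ltbp2* showed the largest ratio of the first WT pair to the second, 5.18, followed by *Mstn* with 3.20, *Chrdl1* with 2.04, *Bmp2* with 1.76, *Fst* with 1.67 and *Bmper* with 1.65. Against the first and the second pair, the log2 fold change was 1.13 and 1.95 for *Bmp2* and 1.14 and 1.87 for *Bmper*. It was 0.70 and 1.26 for *Bmp4* and 0.65 and 1.10 for *Bmp6*. For the inhibitory Smads and *Id1* the ratio was 0.991 to 1.04.

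**Figure D4:**
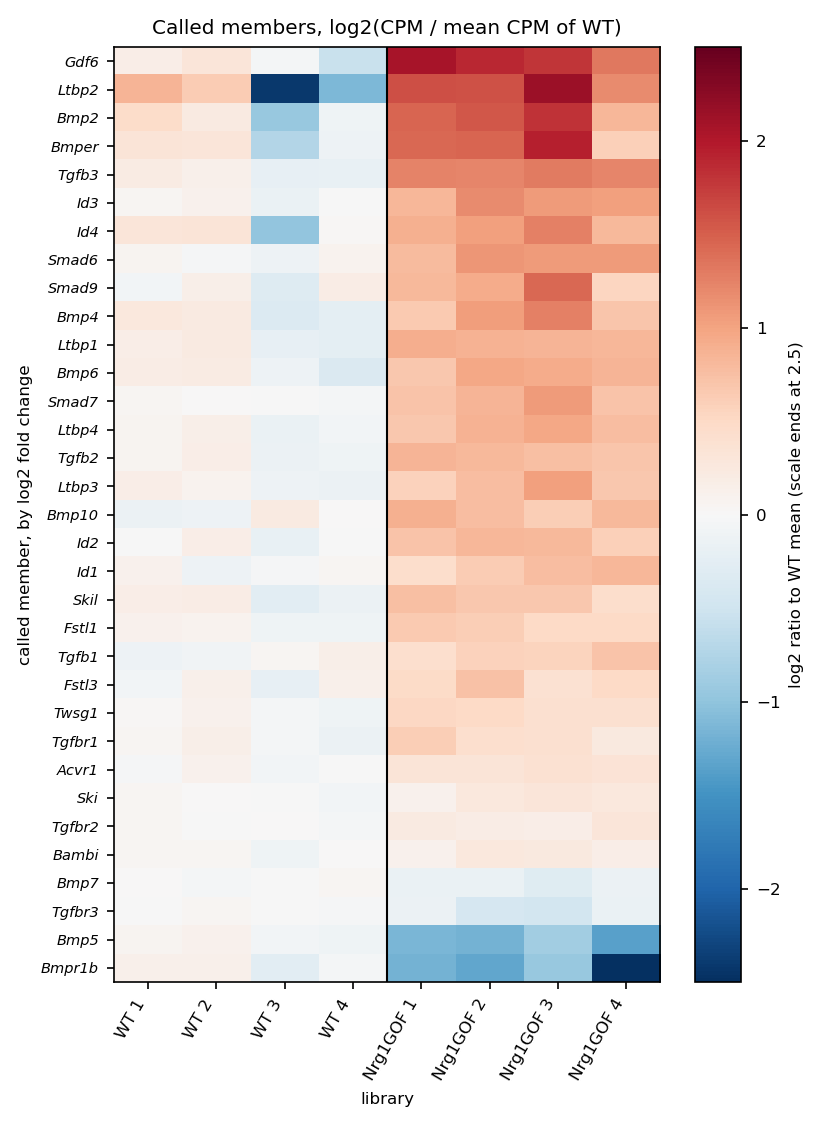
Log2 ratio of CPM to the WT mean (colour) for the 33 called members (rows) in the 8 libraries (columns), with the scale ending at 2.5 in either direction. The 29 rows of higher members are red in all *Nrg1GOF* libraries, and WT libraries 3 and 4 are bluer than WT libraries 1 and 2 in most of those rows.

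Other genes of the pathway were read in the same fit, from lists chosen for this description. Of 62 further pathway genes, 42 were tested, and 19 of those were called, all of them higher (45.2%, against 28.7% of all tested genes), with a median log2 fold change of 0.31. The highest were the stress-induced ligand *Gdf15* at 3.06 (adjusted p = 1.98e-05, SE 0.22) and the Wnt and BMP antagonist *Sost* at 2.75 (adjusted p = 0.000184, SE 0.30). They were followed by *Itgav*, the alpha-v integrin subunit that helps to activate latent TGF-beta, at 1.57 (adjusted p = 3.23e-05, SE 0.12), and by *Thbs1*, another activator, at 1.39 (adjusted p = 0.00208, SE 0.24). WT libraries 1 and 2 were nearer to *Nrg1GOF* for both *Sost* and *Thbs1*. *Sost* was at 1.80, 2.18, 0.809 and 0.983 in WT and 8.85, 12.6, 7.40 and 9.63 CPM in *Nrg1GOF*, and *Thbs1* at 67.9, 70.5, 33.6 and 34.2 in WT and 127, 129, 149 and 132 CPM in *Nrg1GOF*, with no overlap between the genotypes. *Itgav* was at 75.3 ± 13.97 in WT and 224 ± 16.6 CPM in *Nrg1GOF* (means ± SD, n = 4). The smallest changes among the called were those of the receptor-binding immunophilin *Fkbp1a* (0.18), the ligand *Gdf11* (0.29), the procollagen and chordin protease *Bmp1* (0.39) and the BMP co-receptor *Hjv*, listed as *Hfe2* (0.55), with adjusted p from 0.00417 (*Hfe2*) to 0.0397 (*Fkbp1a*).

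Of 16 genes known to respond to TGF-beta, 15 were tested and 13 were called (86.7%, against 28.7% of all tested genes), 12 higher and 1 lower, with a median log2 fold change of 0.93. The matricellular *Ccn2* (connective tissue growth factor) was the highest and rose from 90.3 ± 0.727 to 293 ± 42.03 CPM (means ± SD, n = 4), a log2 fold change of 1.69 (adjusted p = 3.85e-06, SE 0.092). *Tgfbi* and *Tagln* were at 1.36 (SE 0.17) and 1.20 (SE 0.22), with 20.2, 22.97, 35.5 and 36.5 in WT and 73.96, 75.4, 72.5 and 74.4 CPM in *Nrg1GOF* for *Tgfbi* and 38.3, 34.9, 18.5 and 18.97 in WT and 63.5, 68.3, 61.6 and 60.00 CPM in *Nrg1GOF* for *Tagln*. The WT pairs stood apart in opposite order in these genes. The low end of the calls held *Col1a1*, *Fn1* and *Bhlhe40* at 0.76, 0.66 and 0.37. The lower gene was *Acta2* (smooth muscle actin, also made by embryonic cardiomyocytes), which went from 1084 ± 67.3 to 666 ± 51.2 CPM (means ± SD, n = 4), a log2 fold change of -0.70 (adjusted p = 0.000111, SE 0.071). Among 15 genes known to respond to BMPs, 11 were tested and 6 were called, all higher (54.5%, against 28.7% of all tested genes). That count was 3 with WT libraries 1 and 2 alone and 3 with the WT pairs summed. In those fits the calls among all tested genes also fell, to 2999 and 2464 from 4467. *Tbx3*, a transcriptional repressor that maintains conduction system and atrioventricular canal identity, was at 1.01 (adjusted p = 0.00517, SE 0.21), *Atoh8* at 0.82 (adjusted p = 0.00234, SE 0.14), *Hey1* at 0.63 (adjusted p = 0.000417, SE 0.082) and *Cdkn1c* at 0.37 (adjusted p = 0.0156, SE 0.094). Many of these genes also answer other signals, and *Col1a1* and *Postn* are in the fibroblast marker list and *Acta2* in the mural list.

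Markers of other cell types moved with the genotypes. Fibroblast and valve mesenchyme markers were all called higher (9 of 9), and their summed level was 3266 to 4438 CPM in WT and 5875 to 7710 CPM in *Nrg1GOF*. In WT it was higher in libraries 1 and 2 (4427 and 4438 CPM) than in libraries 3 and 4 (3266 and 3310 CPM), the order that most higher members showed. All 6 macrophage markers were called higher (51.8 to 56.2 CPM summed in WT, 103 to 122 CPM in *Nrg1GOF*). Endothelial and endocardial markers were called higher in 5 of 9 (1243 to 1296 CPM in WT, 1382 to 1499 CPM in *Nrg1GOF*), with *Plvap* and *Emcn* the highest of the called at log2 fold changes of 0.80 and 0.67, and *Pecam1*, *Cdh5*, *Kdr* and *Egfl7* at 0.079, -0.036, -0.04 and 0.072, not called. Epicardial markers were called higher in 4 of 7 and lower in 1 (168 to 195 CPM in WT, 209 to 241 CPM in *Nrg1GOF*). Cardiomyocyte markers were called lower in 4 of 8 (44699 to 46473 CPM in WT, 32438 to 40410.4 CPM in *Nrg1GOF*). Mural markers were called lower in 3 of 6 and higher in 2 (1311 to 1505 CPM in WT, 963 to 1068 CPM in *Nrg1GOF*). *Acta2*, which embryonic cardiomyocytes also make, was most of the mural sum in both genotypes and most of its fall. Red blood cell markers were not called (0 of 7), and their summed level was 13014 and 12175 CPM in WT libraries 1 and 2, 5489.8 and 4406 CPM in WT libraries 3 and 4, and 5419 to 8883 CPM in *Nrg1GOF*. In each list every marker had counts in at least 1 library, and cardiomyocyte markers were by far the most abundant. The part of these shifts in the results for the members was not tested.

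**Figure D5:**
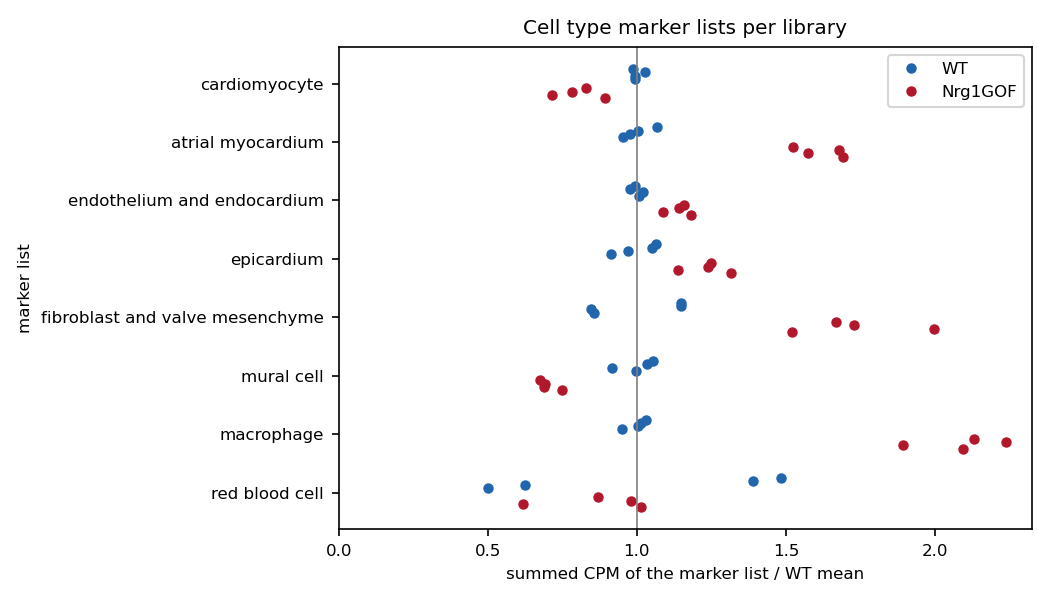
Summed CPM of 8 marker lists in each library divided by the WT mean (x axis, from 0), with WT in blue and *Nrg1GOF* in red. Fibroblast and macrophage lists are higher in all *Nrg1GOF* libraries, cardiomyocyte and mural lists are lower, and red blood cell lists spread most within WT. The mural sum is mostly *Acta2*.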

How the data were processed

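Poly(A) RNA libraries of 4 *Nrg1GOF* and 4 WT ventricles were prepared by the submitters with a directional kit and read as single ends of 60 bases. Per the study's notes, reads were trimmed with cutadapt and quantified with RSEM 1.3.1 on GRCm38 with Ensembl 91 annotation. Expected counts per gene were deposited by the authors, from 8038641 to 26786039 per library, and 8.42% to 13.2% of the values, zeros included, were not whole when rounded to 0.01. The strand setting is not given in the sources used here. Depth limits the precision of genes with few counts.

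Expected counts were rounded and filtered with filterByExpr, which left 15580 genes. They were scaled by TMM (which takes most genes as unchanged) and tested with edgeR 4.0.16 (quasi-likelihood, two-sided, R 4.3.3) over all genes in 1 model of genotype, with Benjamini-Hochberg adjustment. A gene was called at an adjusted p under 0.05. The procedure was tested on simulated data that held no split between WT pairs, so it was not checked under the split seen here. CPM were taken on the TMM-scaled library totals, and levels per kilobase use the union of annotated exons (GENCODE release 21 on GRCm38). Gene positions came from the same annotation, and symbols from a separate list of gene names matched by Ensembl identifier. Promoters came from RefSeq on GRCm38.p6. Groups were taken from the labels.

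The members and lists were chosen with earlier results of these data known. All members are named. Values per library are given for called members with an absolute log2 fold change of at least 0.5 and for all Id, TGF-beta ligand and inhibitory Smad genes. From the other lists, up to 4 called genes at either end of the fold change are named, from an average log2 CPM of 1 up, except that 1 gene is not reported here. The test was repeated with other tools (DESeq2 1.42.0, limma 3.58.1), scalings, filters and subsets of libraries.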

Additional observations from a re-analysis of the deposited data

Results flagged for a closer look

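Within each genotype, the highest and lowest library of every tested member was compared with the rest by the gap to its neighbour over the range of the 4 values (Dixon's ratio). The library totals were compared in the same way. In 108 sets of 4 values, 4 exceeded Dixon's critical value, where about 1 in 20 does by chance (5.4 sets). They were *Chrdl1* in *Nrg1GOF* library 3 (5.05 CPM, the others at 1.86 to 2.38 CPM, ratio 0.837), *Fst* in WT library 3 (0.0809 CPM, the others at 0.573 to 0.656 CPM, ratio 0.857) and *Ski* in *Nrg1GOF* library 1 (181 CPM, the others at 202 to 206 CPM, ratio just over the critical value for 4 samples). The total of *Nrg1GOF* library 4, 8038641 counts, was the last (ratio 0.864).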

How the results depend on the processing

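Member values were recomputed under 22 alternatives, 1159 values in all, of which 1098 kept direction and call. Of the 33 called members, 26 kept both throughout, and the others lost the call in 27 values without changing direction. *Bambi*, *Ski*, *Tgfbr2*, *Tgfbr3* and *Bmp7* lost it against WT libraries 1 and 2 alone, and these and *Ltbp2* and *Bmpr1b* with WT pairs summed. Another 8 values gained the call. The 26 values that changed sign belonged to 9 members that were not called with all libraries, and none of these 26 was called. They were *Chrd* with WT pairs summed (-0.0066), *Bmpr2* (-0.048), *Chrd* (-0.20), *Inhba* (-0.034), *Mstn* (-0.50) and *Smad2* (-0.10) against WT libraries 1 and 2 alone, *Bmpr1a* (0.013), *Smad3* (0.062) and *Smad4* (0.069) against WT libraries 3 and 4 alone, and *Smad3* (0.023) and *Smad4* (0.034) under library total scaling. Leaving out 1 library gave ranges of -0.14 to 0.54 for *Mstn*, -0.13 to 0.0061 for *Acvr2b*, -0.0075 to 0.13 for *Smad2*, -0.061 to 0.011 for *Smad3*, -0.045 to 0.032 for *Smad4* and -0.097 to 0.36 for *Chrd*.

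Lower members numbered 2 after thinning to the smallest total, 1 with WT pairs summed, 2 against WT libraries 1 and 2 alone, 2 against WT libraries 3 and 4 alone and 2 at an adjusted p under 0.01. All tested genes gave 2464 calls (1548 higher, 916 lower) with WT pairs summed and 2999 calls (1308 lower) against WT libraries 1 and 2 alone. At 0.01 they gave 2535 calls (1503 higher, 1032 lower). At 0.01, 12 of the other pathway genes were called, and BMP response genes gave 3 calls there, with WT pairs summed and against WT libraries 1 and 2 alone. Leaving out 1 library gave 30 to 33 members (27 to 29 higher, 3 to 4 lower), 3239 to 4261 genes (1869 to 2426 higher, 1370 to 1868 lower), 14 to 18 other pathway genes, 13 to 14 TGF-beta response genes, 5 to 6 BMP response genes and a log2 fold change of 3.83 to 4.00 for *Nrg1*. The cause of these shifts was not tested.

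With a replicate block, 33 members (29 higher, 4 lower), the same genes, and 4524 genes were called (2407 higher, 2117 lower). Libraries of the same number deviated together with correlations of 0.129, 0.0492, 0.199 and 0.0668, so the numbers were not taken as pairs. Library total scaling moved the median of all genes by 0.0439 on the log2 scale. Levels per kilobase with the longest transcript differed by at least 1 SD of the libraries in 58 of 106 values. At the smallest total, *Fst*, *Nog*, *Mstn* and *Bmpr1b* were under the filter on low counts and were not tested.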

Other observations

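Ratios of 2 members within a library do not depend on the scaling of libraries, and some were taken after the values had been seen, so they are given with no test. *Bmp10* over *Bmp7* was 0.752 to 0.986 in WT and 1.57 to 1.74 in *Nrg1GOF*, and *Bmp6* over *Bmp5* was 0.859 to 1.11 in WT and 3.54 to 4.64 in *Nrg1GOF*. *Tgfb3* over *Tgfb1* was 0.524 to 0.836 in WT and 0.942 to 1.17 in *Nrg1GOF*. *Smad6* over *Smad1* was 1.26 to 1.43 in WT and 2.44 to 2.58 in *Nrg1GOF*, and *Smad7* over *Smad3* was 0.379 to 0.421 in WT and 0.660 to 0.816 in *Nrg1GOF*. These are ratios of counts and show unequal change only.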
